A study of Homo sapiens with 12 samples.

Results

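Cholesterol and fatty acid synthesis genes were followed by RNA-seq after FAT1 knockdown in oral squamous cell carcinoma cells. The set holds 31 genes, chosen by symbol from the 19225 rows of the count table, for their place in these pathways; no measured value enters the choice of a single gene, although the pathways were picked with earlier results of these data known. It covers 7 genes of the mevalonate pathway, 11 genes from squalene to cholesterol, 5 genes of sterol sensing, 6 genes of fatty acid synthesis and desaturation, and 2 targets of the liver X receptors (LXR). The cells were HN6 and HN30, established lines of head and neck squamous cell carcinoma. Each line was transfected with a scrambled siRNA as negative control (NC), with siFAT1-1 or with siFAT1-2, and RNA was taken 24 h later. Sample titles mark 2 repeats as time1 and time2, which gave 12 libraries in 6 conditions with 2 libraries each. All cells, NC included, received Lipofectamine RNAiMAX and an siRNA, and no untransfected cells were sequenced. The sample titles call the siRNAs sh1 and sh2, while the sample descriptions and the study's methods call them siRNAs.

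Cells build cholesterol from acetyl-CoA through mevalonate, isoprenoids, squalene and lanosterol, and fatty acids from the same acetyl-CoA through malonyl-CoA. The transcription factors SREBP-1 and SREBP-2, encoded by SREBF1 and SREBF2, drive most of these genes. When sterol in the endoplasmic reticulum is low, SCAP carries the SREBPs to the Golgi for cleavage, and INSIG1 holds SCAP back when sterol is plentiful. For cholesterol, LXR work in the other direction, since oxysterols activate them and their targets export cholesterol or limit its uptake. In epithelial cells these pathways supply membranes, and SREBP activity is known to be raised in many carcinomas.

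The promoters of these genes were read first, because members with a shared regulator are described together below. RefSeq promoter windows (GRCh38.p14, 250 bases before to 50 after each annotated start) were found for 27 of the 31 genes, as 35 windows. The sterol element letters TCACNCCAC, read on both strands, occurred in 1 member, SREBF2, and in 1.13% of all 35116 windows. Its shorter core CACNCCAC, which lies inside those letters and was added after seeing the data, occurred in 7 of the 27 members (25.9%), namely ABCA1, ACACA, IDI1, INSIG1, SC5D, SCD and SREBF2, and in 7.05% of all 27305 genes with a window. CCAAT, the box bound by NF-Y, which commonly sits beside sterol elements, occurred in 20 of 27 members (74.1%) and in 39.7% of all genes. GGGCGG, an Sp1 box, occurred in 26 of 27 members (96.3%) and in 48.3% of all genes. The LXR direct repeat was found in 0 member windows and in 7 windows of the whole table. These shares are descriptions of letters, not of binding. The windows below show the sterol element letters in SREBF2, and only the shorter core CACNCCAC in SCD and INSIG1. They also show the CCAAT box nearest to the start in MVD, FDPS, MVK, NSDHL and EBP, picked among the members whose counts differed. FADS2, SCD, MYLIP, DHCR7 and SC5D, which also passed an adjusted p of 0.05 in a comparison below, hold CCAAT boxes not shown. FADS1, PMVK, CYP51A1 and ELOVL6 passed as well and hold none. FDFT1, FASN and SQLE passed but had no window. Capitals mark the motif, or its complement where it lies on the other strand, and each window runs 5′ to 3′ along the gene.
SREBF2 (chr22:41832962-41832990, plus strand): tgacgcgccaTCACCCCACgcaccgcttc
SCD (chr10:100347109-100347136, plus strand): cagaggccggGTGGTGTGgtgtcggtgt
INSIG1 (chr7:155297660-155297687, plus strand): cgggccggcgGTGGCGTGtgcgcacgtc
MVD (chr16:88663160-88663188, minus strand): ggctcgcacgggCCAATcctgtggtagcg
FDPS (chr1:155308803-155308831, plus strand): tcccgcgggcacATTGGgagttgtagtct
MVK (chr12:109573736-109573764, plus strand): tcgcgcgctctgATTGGctggcctgaagt
NSDHL (chrX:152830967-152830995, plus strand): cgccgagctgggCCAATcctcttggtgga
EBP (chrX:48521766-48521794, plus strand): cttcgcttcaccATTGGctcgctccgtaa
The CCAAT box of EBP lay at bases -30 to -26 from the annotated start, that of MVK at -46 to -42, that of FDPS at -51 to -47, that of NSDHL at -84 to -80 and that of MVD at -85 to -81.

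Total counts ran from 26430049 to 47639010 per library with a median of 32561793, and all 31 members passed the filter on low counts together with 13887 genes in all. Values below are CPM, the counts of a gene divided by the TMM-scaled library total. FAT1, the atypical cadherin that the siRNAs target (chr4:186587794-186726722 in hg38), checked the labels. In HN6 it was at 56.8 and 66.7 CPM with NC, at 7.61 and 13.5 CPM with siFAT1-1 and at 13.2 and 21.4 CPM with siFAT1-2. The HN30 libraries were at 13.6 and 14.7 CPM with NC, at 4.86 and 6.26 CPM with siFAT1-1 and at 10.8 and 7.74 CPM with siFAT1-2. All 8 knockdown (KD) libraries lay below the NC libraries of their line, and FAT1 fell by 1.59 on the log2 scale (edgeR adjusted p = 0.0404), a call that was lost in 11 of the 12 fits that left out 1 library and with the replicate block (adjusted p = 0.0757). The KD libraries closest to NC were those of siFAT1-2 in HN30. Epithelial markers were present, with CDH1 at 314 CPM or more in every library and EPCAM at 190 CPM or more. Squamous markers varied more, with KRT5 at 90.6 to 1987 CPM, KRT17 at 7.83 to 1224 CPM and TP63 at 27.6 to 275 CPM. KRT14 was at 2.42 CPM or less, and FABP4, a marker of adipocytes, was at 0 in all 12 libraries.

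**Figure D1:**
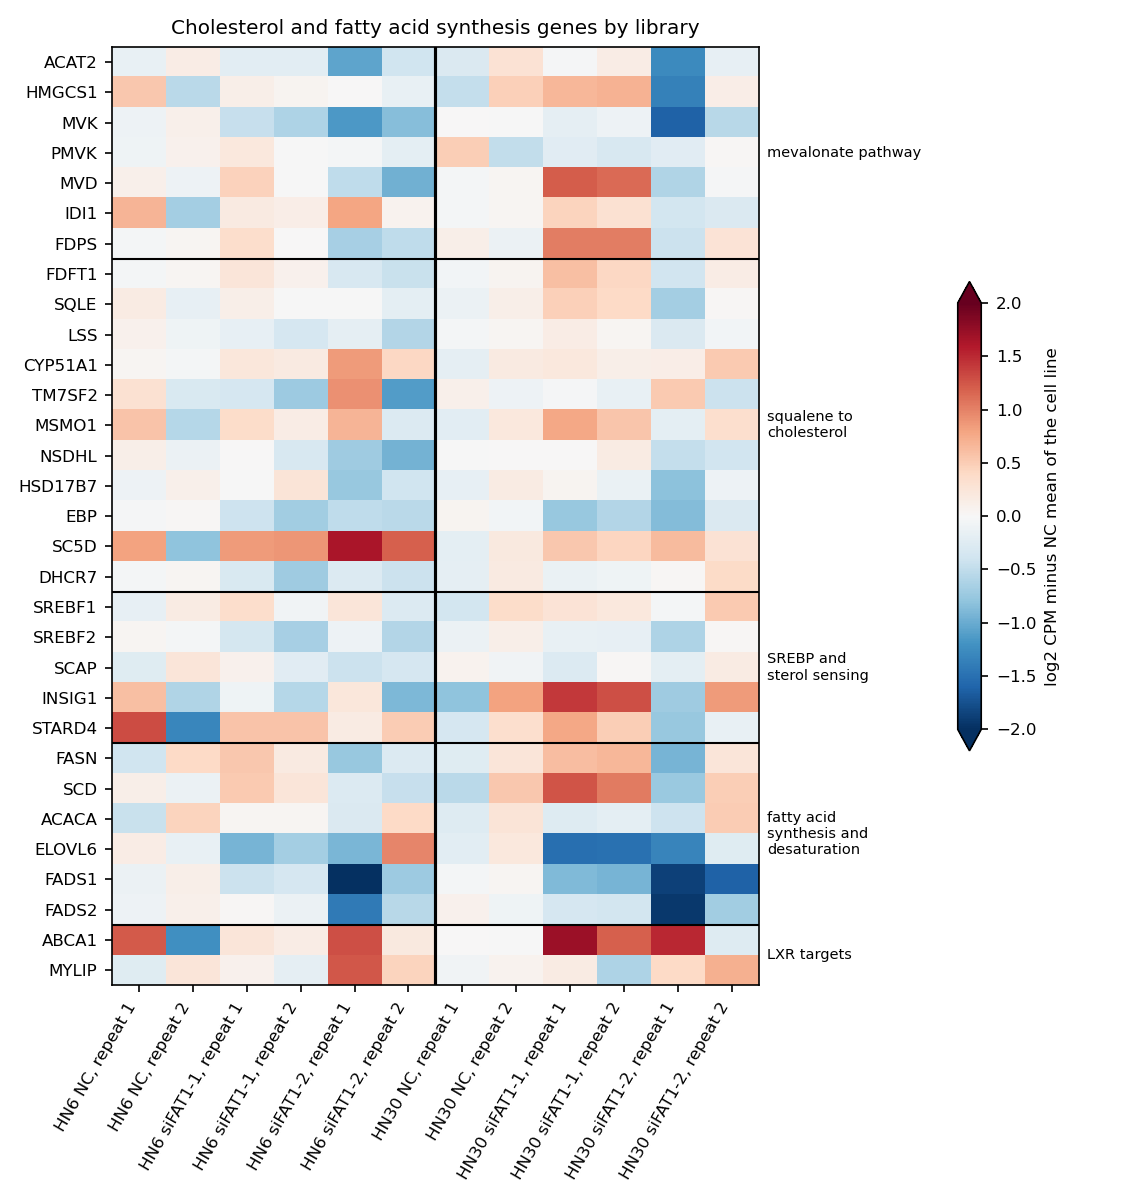
Log2 CPM of each of the 31 members in the 12 libraries, minus the mean of the 2 NC libraries of the same cell line, with the members grouped by role and the colour scale ending at -2 and 2. FADS1 is blue in all 8 KD libraries, SC5D is red in them, and the 2 NC libraries of HN6 differ from each other in STARD4, ABCA1, SC5D and INSIG1.

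The first comparison asked whether FAT1 knockdown, taken over both siRNAs and both lines, moved these genes. No general shift was seen, as 15 members were below NC (48.4%, against 48% of all genes) and 16 above, with a median log2 fold change of 0.03 against 0.02 for all genes tested. None of the 31 members passed an adjusted p of 0.05 in edgeR, where 0.295% of all genes were called higher and 0.252% lower. At an unadjusted p under 0.05, 1 member was higher (3.23%, against 6.77% of all genes) and 3 were lower (9.68%, against 7.75%). The same count at an adjusted p of 0.05 was 0 with limma-voom (96 of all 13887 genes) and 1 with DESeq2 (640 of all genes), which called EBP. These shares lie near those of all genes. In bulk RNA, fewer cells with a transcript and less of it per cell cannot be told apart.

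The 4 members concerned, EBP, MVK, FADS1 and SC5D, were also the only members with all 8 KD libraries on the same side of their line's NC libraries, 3 below (all genes, 3.15%) and 1 above (all genes, 2.29%). EBP, the sterol isomerase that moves the double bond in the sterol ring (chrX:48521799-48528716), was at 80.4 and 83.8 CPM with NC in HN6, 61.4 and 50.4 CPM with siFAT1-1 and 57.8 and 56.3 CPM with siFAT1-2. In HN30, EBP was at 86.7 and 79.7 CPM with NC, 49.0 and 55.4 CPM with siFAT1-1 and 45.3 and 68.2 CPM with siFAT1-2. The 4 NC libraries were thus close to each other and the KD libraries were lower by a log2 fold change of -0.58 (SE 0.14), with an edgeR adjusted p of 0.0928. MVK, mevalonate kinase (chr12:109573255-109598125), was at 64.0 and 74.2 CPM with NC in HN6, against 49.9 and 45.1 CPM with siFAT1-1 and 30.9 and 38.1 CPM with siFAT1-2. In HN30, MVK was at 56.5 and 55.3 CPM with NC, 49.6 and 52.1 CPM with siFAT1-1 and 18.2 and 38.0 CPM with siFAT1-2. Its values with siFAT1-2 lay below those with siFAT1-1 in both lines, and over both siRNAs the log2 fold change was -0.63 (SE 0.24, edgeR adjusted p = 0.255).

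FADS1, the delta-5 desaturase that makes arachidonic acid (chr11:61799627-61829318), was at 173 and 203 CPM with NC in HN6, 140 and 149 CPM with siFAT1-1, and 27.4 and 113 CPM with siFAT1-2. In HN30, FADS1 was at 121 and 128 CPM with NC, 67.3 and 65.2 CPM with siFAT1-1 and 34.0 and 40.7 CPM with siFAT1-2. It was the only member past an unadjusted p of 0.05 with an absolute log2 fold change above 1 (-1.04, SE 0.34, edgeR adjusted p = 0.186), thresholds that 1.04% of all genes passed downwards and 2.03% upwards. It did not pass them without HN6 siFAT1-2 repeat 1, HN30 siFAT1-2 repeat 1 or 2, or HN30 NC repeat 2, where the count was 0. SC5D, which puts in the last double bond before the final step to cholesterol (chr11:121292681-121313410), was the member above NC in every KD library. It was at 32.6 and 10.7 CPM with NC in HN6, 33.7 and 34.4 CPM with siFAT1-1 and 58.3 and 42.7 CPM with siFAT1-2. In HN30, SC5D was at 54.4 and 72.1 CPM with NC, 90.9 and 84.5 CPM with siFAT1-1 and 97.2 and 76.4 CPM with siFAT1-2. HN6 NC repeat 1 lay just under the siFAT1-1 libraries, and the log2 fold change of 0.71 (SE 0.27, edgeR adjusted p = 0.259) was 0.42 without HN6 NC repeat 2.

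**Figure D2:**
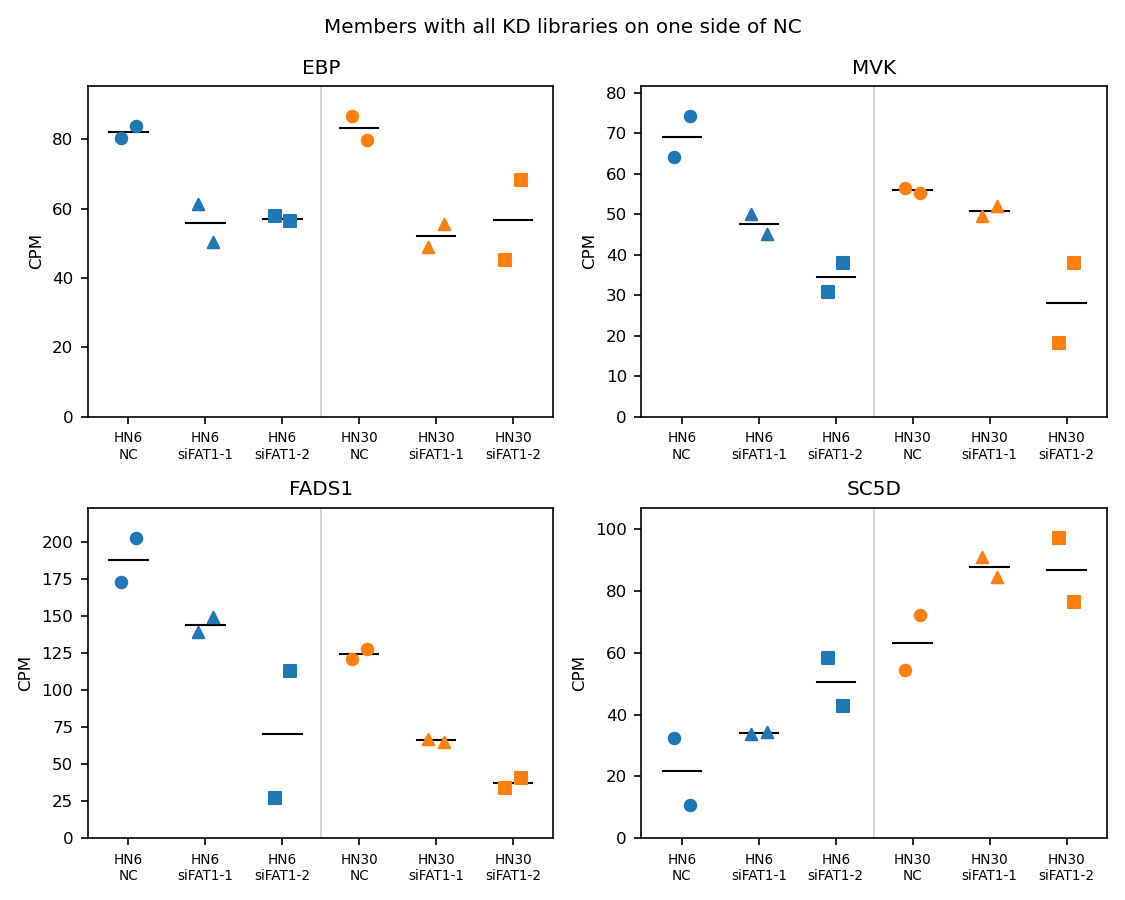
CPM of EBP, MVK, FADS1 and SC5D in each library (points, 2 per condition) with the mean of each condition (line), HN6 in blue and HN30 in orange, NC as circles, siFAT1-1 as triangles and siFAT1-2 as squares. In the first 3 genes all KD points lie below the NC points of their line, and in SC5D all lie above, by little for siFAT1-1 in HN6.

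The siRNAs were then compared with NC one at a time. Both comparisons use the same 4 NC libraries, so their values are given side by side and not related to each other. With siFAT1-2, 5 members fell and 0 rose at an adjusted p of 0.05 in edgeR and in limma-voom, and in DESeq2 5 fell and 3 rose. Of all 13887 genes, edgeR called 1641 in either direction, limma-voom 1917 and DESeq2 2694. In edgeR the 5 lower members were 16.1% of the members, against 7.47% of all genes lower and 4.35% higher. The 5 were FADS1 (log2 fold change -1.59, SE 0.32, edgeR adjusted p = 0.0116), MVK (-0.998, SE 0.213, adjusted p = 0.0139), NSDHL (-0.63, SE 0.15, adjusted p = 0.021), FADS2 (-1.06, SE 0.25, adjusted p = 0.0218) and EBP (-0.54, SE 0.15, adjusted p = 0.0413). They fall in 3 roles, with MVK in the mevalonate pathway, NSDHL and EBP in the conversion of lanosterol to cholesterol, and FADS1 and FADS2 in the desaturation of polyunsaturated fatty acids. Of all 31 members, 22 were lower with siFAT1-2 (71%, against 50.3% of all genes), with a median log2 fold change of -0.24, which was -0.125 without HN30 siFAT1-2 repeat 1 and -0.340 without HN30 siFAT1-2 repeat 2. The count of 5 became 3 without HN6 NC repeat 1 (all genes, 1339 called), HN6 siFAT1-2 repeat 1 (878) or HN30 NC repeat 1 (693), against 1641 with all libraries. FADS1 and FADS2 also passed the fold threshold (6.45%, against 4.75% of all genes lower and 4.31% higher), and the EBP call was lost in 11 of 12 fits that left out 1 library.

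NSDHL, which takes part in removing the methyl groups at C4 of the sterol ring (chrX:152830967-152869729), was at 84.8 and 71.7 CPM with NC in HN6, 78.0 and 62.4 CPM with siFAT1-1 and 47.6 and 40.6 CPM with siFAT1-2. Values in HN30 were 54.2 and 55.0 CPM with NC, 55.2 and 61.1 CPM with siFAT1-1 and 39.2 and 42.0 CPM with siFAT1-2. The siFAT1-2 libraries were below all NC and siFAT1-1 libraries of their line. FADS2, the delta-6 desaturase (chr11:61792980-61867354), was at 69.5 and 80.5 CPM with NC in HN6, 75.8 and 68.9 CPM with siFAT1-1 and 28.0 and 50.7 CPM with siFAT1-2. In HN30 it was at 44.3 and 39.0 CPM with NC, 32.9 and 32.2 CPM with siFAT1-1 and 10.9 and 25.7 CPM with siFAT1-2. FADS1 and FADS2 lie beside each other on opposite strands and share 490 exon bases in the GENCODE annotation used here. The strand setting of the counting was not given in the sources used here. Reads from those bases thus cannot be assigned to 1 of the genes. MVK likewise shares 225 exon bases with MMAB. Other members with such overlaps include ACAT2 with TCP1 (454 bases) and SOD2 (133), and SREBF1 with RAI1 (556). EBP (644) and CYP51A1 (2844) share exon bases with same-strand genes that have no row in the count table.

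A further 3 members were higher with siFAT1-2 at an unadjusted p under 0.05 (9.68%, against 12.9% of all genes), without passing an adjusted p of 0.05 in edgeR, while DESeq2 called all 3. They were SC5D (log2 fold change 0.85, edgeR adjusted p = 0.0855), MYLIP (0.72, adjusted p = 0.0847) and CYP51A1, the lanosterol demethylase (0.49, adjusted p = 0.0561). With siFAT1-1, 0 members passed an adjusted p of 0.05 in edgeR, where 1.16% of all genes were called higher and 2.09% lower. There limma-voom called 1 member (553 of all 13887 genes) and DESeq2 called 3 (1216 of all genes). At an unadjusted p under 0.05, 4 members were higher (12.9%, against 8.81% of all genes) and 2 were lower (6.45%, against 10.2%). The higher members were MVD (0.71, SE 0.22, edgeR adjusted p = 0.105), SCD (0.72, SE 0.28, adjusted p = 0.189), FDPS (0.59, SE 0.20, adjusted p = 0.14) and FDFT1 (0.34, SE 0.15, adjusted p = 0.235). The lower members were EBP (-0.61, SE 0.15, adjusted p = 0.052) and ELOVL6, which elongates palmitate to stearate (-1.20, SE 0.38, adjusted p = 0.111). The median over the 31 members was 0.04.

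ELOVL6 was the only member past the fold threshold with siFAT1-1 (3.23%, against 2.35% of all genes lower and 3.23% higher). It was at 26.4 and 21.4 CPM with NC in HN6, 12.4 and 14.8 CPM with siFAT1-1 and 12.5 and 46.9 CPM with siFAT1-2. The HN30 libraries were at 68.4 and 92.6 CPM with NC, 27.9 and 28.2 CPM with siFAT1-1 and 31.7 and 67.3 CPM with siFAT1-2. The siFAT1-1 libraries were close to each other, and the siFAT1-2 libraries were spread from the siFAT1-1 level to the NC level or above. Without HN30 NC repeat 2 the count of members past the fold threshold was 0, and without HN6 NC repeat 1 it was 2.

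The siRNAs also differed from each other. FAT1 itself was lower with siFAT1-1 than with siFAT1-2 by a log2 difference of -0.73 (SE 0.31) that did not pass (edgeR adjusted p = 0.119). In edgeR, 8 members were higher with siFAT1-1 than with siFAT1-2 at an adjusted p of 0.05 (25.8% of members, against 10% of all genes) and 1 was lower (3.23%, against 7.39%). Counts were 9 higher and 1 lower in limma-voom, which added FADS1, and 10 higher and 2 lower in DESeq2, which added FADS1, HSD17B7 and ELOVL6. Of all 13887 genes, edgeR called 2420 in either direction, limma-voom 2681 and DESeq2 3593. At an unadjusted p under 0.05 in edgeR, 12 members were higher (38.7%, against 17.8% of all genes) and 2 were lower (6.45%, against 16.1%). Only MVD passed the fold threshold (all genes, 7.27% higher and 5.11% lower). All 7 mevalonate pathway members were higher on the scale fitted over both lines, with a median log2 difference of 0.64. Within lines, both PMVK libraries with siFAT1-1 lay below those with siFAT1-2 in HN30, and the fitted difference of IDI1 was below 0 in HN6. The 6 fatty acid members had a median of 0.86. The median was 0.18 from squalene to cholesterol, where 5 of 11 were below 0, and 0.10 for sterol sensing. For the LXR targets it was -0.39, the midpoint of 2 genes, with MYLIP at -0.84 and ABCA1 above 0. Over all members it was 0.28, against -0.02 for all genes, and it ran from 0.155 without HN6 siFAT1-2 repeat 2 to 0.453 without HN6 siFAT1-2 repeat 1. In both lines, both siFAT1-1 libraries lay above both siFAT1-2 libraries for 13 of the 31 members (41.9%, against 18.2% of all genes), and below them for 1 (3.23%, against 15.9%). The 13 were ACAT2, HMGCS1, MVK, MVD, FDPS, FDFT1, SQLE, NSDHL, STARD4, FASN, SCD, FADS1 and FADS2, and the 1 was MYLIP. These shares are a description of the set, with no test over it.

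In the mevalonate pathway, MVD, which decarboxylates mevalonate diphosphate to the isoprenoid unit (chr16:88651935-88663161), showed the largest difference of the 31. In HN6 it was at 125 and 108 CPM with NC, 160 and 116 CPM with siFAT1-1 and 81.6 and 59.5 CPM with siFAT1-2. Values in HN30 were 59.6 and 63.3 CPM with NC, 142 and 134 CPM with siFAT1-1 and 40.4 and 60.2 CPM with siFAT1-2. The siFAT1-1 and siFAT1-2 libraries did not overlap in either line, and the log2 difference was 1.23 (SE 0.22, edgeR adjusted p = 0.00414). FDPS, farnesyl diphosphate synthase (chr1:155308748-155320666), was at 147 and 156 CPM with NC in HN6, 192 and 151 CPM with siFAT1-1 and 95.1 and 107 CPM with siFAT1-2. In HN30 it was at 157 and 132 CPM with NC, 292 in both siFAT1-1 libraries, and 107 and 174 CPM with siFAT1-2. NC lay near siFAT1-1 in HN6 and near siFAT1-2 in HN30, and the siRNAs differed by 0.92 (SE 0.20, adjusted p = 0.0106). MVK, given above, differed by 0.66 (SE 0.21) with an adjusted p of 0.04997, at the edge of the threshold.

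The other 4 mevalonate members did not pass in edgeR. ACAT2, which joins acetyl-CoA units, differed by 0.58 (SE 0.24, edgeR adjusted p = 0.112), HMGCS1 by 0.64 (SE 0.34, adjusted p = 0.212), IDI1 by 0.19 (SE 0.29) and PMVK by 0.03 (SE 0.23). HMGCS1, the synthase before mevalonate, was at 246 and 116 CPM with NC in HN6, 183 and 176 CPM with siFAT1-1 and 170 and 153 CPM with siFAT1-2. The HN30 libraries were at 289 and 556 CPM with NC, 636 and 649 CPM with siFAT1-1 and 156 and 441 CPM with siFAT1-2. The NC libraries spanned the levels of both siRNAs in HN6, and in HN30 the siFAT1-2 libraries differed from each other more than the siFAT1-1 libraries differed from NC repeat 2.

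From squalene to cholesterol, 2 of 11 members passed in edgeR. FDFT1, squalene synthase, was at 206 and 218 CPM with NC in HN6, 252 and 226 CPM with siFAT1-1 and 170 and 156 CPM with siFAT1-2. Values in HN30 were 160 and 174 CPM with NC, 255 and 223 CPM with siFAT1-1 and 128 and 186 CPM with siFAT1-2. Both siFAT1-1 libraries were the highest of their line, and the log2 difference was 0.58 (SE 0.15, edgeR adjusted p = 0.0199). NSDHL differed by 0.59 (SE 0.15, adjusted p = 0.0199), with siFAT1-2 below NC and siFAT1-1 near it. SQLE, squalene epoxidase, was at 155 and 125 CPM with NC in HN6, 150 and 139 CPM with siFAT1-1 and 138 and 122 CPM with siFAT1-2. In HN30, SQLE was at 247 and 292 CPM with NC, 373 and 352 CPM with siFAT1-1 and 168 and 272 CPM with siFAT1-2, and its log2 difference of 0.44 (SE 0.18) had an adjusted p of 0.105. The differences of LSS, MSMO1 and HSD17B7 were 0.18, 0.28 and 0.54, and those of CYP51A1, TM7SF2, EBP, SC5D and DHCR7 were -0.31, -0.47, -0.07, -0.29 and -0.24, all with an adjusted p above 0.05 in edgeR, while DESeq2 called HSD17B7.

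In fatty acid synthesis, FASN, the synthase that makes palmitate (chr17:82078338-82098294), was at 424 and 738 CPM with NC in HN6, 814 and 635 CPM with siFAT1-1 and 330 and 464 CPM with siFAT1-2. In HN30 it was at 915 and 1288 CPM with NC, 1658 and 1727 CPM with siFAT1-1 and 568 and 1284 CPM with siFAT1-2. The NC libraries lay between the siRNAs or overlapped them, and the log2 difference between the siRNAs was 0.87 (SE 0.26, edgeR adjusted p = 0.0385). SCD, the delta-9 desaturase that makes oleate (chr10:100347233-100364826), was at 416 and 352 CPM with NC in HN6, 548 and 450 CPM with siFAT1-1 and 315 and 278 CPM with siFAT1-2. The HN30 libraries were at 507 and 1064 CPM with NC, 1762 and 1514 CPM with siFAT1-1 and 439 and 1028 CPM with siFAT1-2. The siFAT1-1 libraries were the highest of each line, and the difference was 0.96 (SE 0.28, adjusted p = 0.0355). FADS2 differed by 0.86 (SE 0.25, adjusted p = 0.0382) and FADS1 by 0.94 (SE 0.32, adjusted p = 0.0604), both lower with siFAT1-2. ACACA, acetyl-CoA carboxylase, differed by -0.20 (SE 0.25) and ELOVL6 by -0.99 (SE 0.38, adjusted p = 0.0862), so the fatty acid members did not all go one way.

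**Figure D3:**
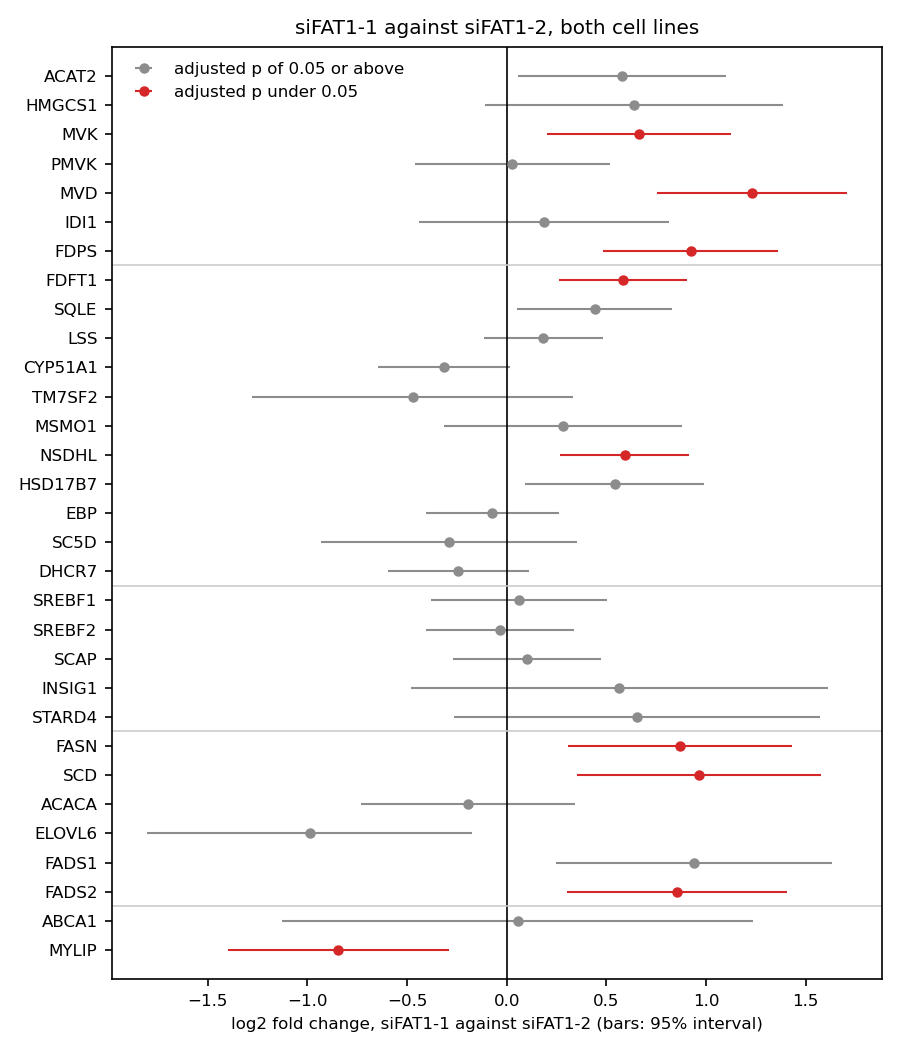
Fitted log2 fold change of siFAT1-1 against siFAT1-2 over both cell lines for the 31 members, in the order of their roles, with 95% intervals, and with members at an adjusted p under 0.05 in red. Of the 9 red members 8 lie to the right of 0, led by MVD at 1.23, and MYLIP lies to the left at -0.84.

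**Figure D4:**
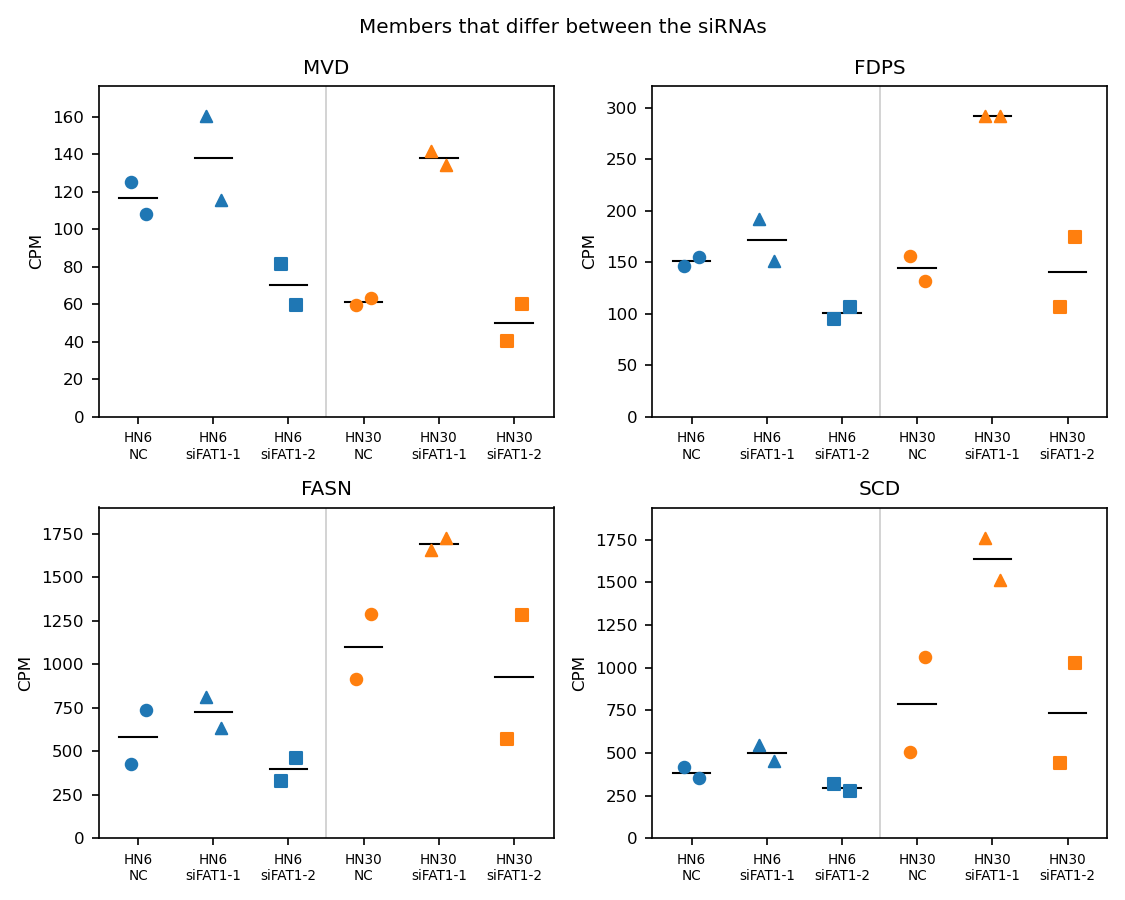
CPM of MVD, FDPS, FASN and SCD in each library (points, 2 per condition) with the mean of each condition (line), HN6 in blue and HN30 in orange, NC as circles, siFAT1-1 as triangles and siFAT1-2 as squares. The siFAT1-1 points are above the siFAT1-2 points of the same line in all 4 genes, and the siFAT1-2 points of HN30 are spread.

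The count of 9 changed with single libraries, and so did the number of all genes called, which was 2420 with all libraries. Members called were 2 without HN6 siFAT1-1 repeat 1 (all genes, 1349), HN30 siFAT1-1 repeat 1 (1033) or HN30 siFAT1-1 repeat 2 (1015). They were 3 without HN30 siFAT1-2 repeat 1 (all genes, 1346), and 5 without HN6 siFAT1-2 repeat 1 (1879) or HN6 siFAT1-1 repeat 2 (1887). MVD and FDPS passed in all 12 of these fits. Within HN30 alone, MVD (1.46, SE 0.27, edgeR adjusted p = 0.0155) and FDPS (1.05, SE 0.25, adjusted p = 0.0319) passed. They were 6.45% of the members, near the 4.76% of all genes called higher there, with 3.89% called lower. Within HN6 alone, 0 members passed in edgeR, 6 were higher and 1 was lower at an unadjusted p under 0.05 (all genes, 10.1% and 8.09%), and MVD differed by 0.97 (SE 0.26, adjusted p = 0.131). The difference between the siRNAs was not itself different between the lines for any member at an unadjusted p under 0.05 (all genes, 2.58% and 3.4%). Squamous epithelial markers moved with the siRNA as well, and 6 of the 9 tested were higher with siFAT1-1 than with siFAT1-2 at an adjusted p of 0.05 (all genes, 10%). Their summed level was 5257 to 6207 CPM with siFAT1-1 and 1948 to 2819 CPM with siFAT1-2 in HN6, and 3156 to 3316 CPM and 1205 to 1648 CPM in HN30. Of the other cell type markers, VWF and CDH5 of endothelium (2 of 2 tested, at 6.53 CPM or less in every library) were higher with siFAT1-1. PDGFRB of fibroblasts (at 9.37 CPM or less) was also higher, and LUM of fibroblasts (at 13.7 CPM or less) was lower. Not all of these markers were at low levels, as COL1A1 of the fibroblast list was at 11.1 to 146 CPM and CD68 of the leukocyte list at 16.1 to 121 CPM. The part of these in the lipid genes was not tested.

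The sterol sensing genes themselves did not pass an adjusted p of 0.05 in edgeR between the siRNAs or for either siRNA against NC. SREBF2 was at 381 and 363 CPM with NC in HN6, 292 and 235 CPM with siFAT1-1 and 348 and 248 CPM with siFAT1-2. Values in HN30 were 368 and 431 CPM with NC, 359 and 355 CPM with siFAT1-1 and 260 and 406 CPM with siFAT1-2. The 4 siFAT1-1 libraries were below the NC libraries of their line, with a log2 fold change over both siRNAs of -0.31 and a 95% interval from -0.64 to 0.02. SREBF1 was at 90.3 and 113 CPM with NC in HN6, 128 and 96.7 CPM with siFAT1-1 and 120 and 83.3 CPM with siFAT1-2. In HN30 it was at 92.3 and 153 CPM with NC, 144 and 138 CPM with siFAT1-1 and 115 and 171 CPM with siFAT1-2, and it overlapped NC throughout. Between the siRNAs SREBF1 differed by 0.06 (95% interval -0.38 to 0.51) and SREBF2 by -0.035 (-0.41 to 0.34). SCAP was at 84.0 and 117 CPM with NC in HN6, 106 and 84.5 CPM with siFAT1-1 and 73.1 and 78.2 CPM with siFAT1-2. In HN30, SCAP was at 129 and 117 CPM with NC, 101 and 125 CPM with siFAT1-1 and 107 and 138 CPM with siFAT1-2, with a log2 difference between the siRNAs of 0.10 (95% interval -0.27 to 0.47).

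INSIG1 and STARD4, which carries sterol between membranes, varied between libraries of the same condition. INSIG1 was at 154 and 66.4 CPM with NC in HN6, 95.5 and 67.8 CPM with siFAT1-1 and 118 and 54.4 CPM with siFAT1-2. The HN30 libraries were at 24.9 and 75.8 CPM with NC, 115 and 106 CPM with siFAT1-1 and 26.4 and 78.4 CPM with siFAT1-2. In HN30 the siFAT1-1 libraries stood above the others, and the difference between the siRNAs over both lines was 0.57 with a 95% interval from -0.48 to 1.61. STARD4 was at 41.6 and 6.74 CPM with NC in HN6, 24.79 and 24.97 CPM with siFAT1-1 and 18.8 and 23.8 CPM with siFAT1-2. In HN30, STARD4 was at 43.7 and 69.5 CPM with NC, 94.6 and 77.7 CPM with siFAT1-1 and 32.6 and 49.6 CPM with siFAT1-2. The HN6 NC libraries were the highest and the lowest of their line.

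Of the LXR targets, MYLIP, the ubiquitin ligase that sends lipoprotein receptors for breakdown (chr6:16129086-16148248), was the only member lower with siFAT1-1 than with siFAT1-2 at an adjusted p of 0.05 in edgeR. In HN6 it was at 4.51 and 6.31 CPM with NC, 5.68 and 4.71 CPM with siFAT1-1 and 12.7 and 7.28 CPM with siFAT1-2. Values in HN30 were 8.20 and 9.02 CPM with NC, 9.61 and 5.58 CPM with siFAT1-1 and 11.4 and 14.1 CPM with siFAT1-2. The siFAT1-2 libraries were the highest of each line, and siFAT1-1 was lower than siFAT1-2 by a log2 difference of -0.84 (SE 0.25, edgeR adjusted p = 0.0399), a call lost in 9 of the 12 fits that left out 1 library and with the replicate block (adjusted p = 0.0513). ABCA1, the cholesterol exporter, was at 15.2 and 2.76 CPM with NC in HN6, 7.72 and 7.23 CPM with siFAT1-1 and 15.9 and 7.43 CPM with siFAT1-2. In HN30, ABCA1 was at 8.60 and 8.59 CPM with NC, 28.2 and 19.9 CPM with siFAT1-1 and 24.7 and 7.22 CPM with siFAT1-2. Its log2 fold change over both siRNAs was 0.62 with a 95% interval from -0.40 to 1.64.

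The spread between repeats bears on all of these values. In HN6 NC, 7 members differed by more than 1 on the log2 scale between the repeats (22.6%, against 23.0% of all genes), and all 7 were lower in repeat 2. They were STARD4 (-2.62), ABCA1 (-2.44), SC5D (-1.60), IDI1 (-1.35), INSIG1 (-1.21), MSMO1 (-1.14) and HMGCS1 (-1.08), 4 of them enzymes of cholesterol synthesis. In HN30 NC, INSIG1 (1.60) and SCD (1.07) were higher in repeat 2. In HN30 siFAT1-2, 28 of 31 members were higher in repeat 2 and the median absolute log2 difference was 0.60 for members and 0.35 for all genes, while in HN30 siFAT1-1 it was 0.10 and 0.15. The NC libraries of HN6 correlated at r = 0.942 over all genes tested, the lowest of the 6 conditions, and those of HN30 siFAT1-1 at 0.990.

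**Figure D5:**
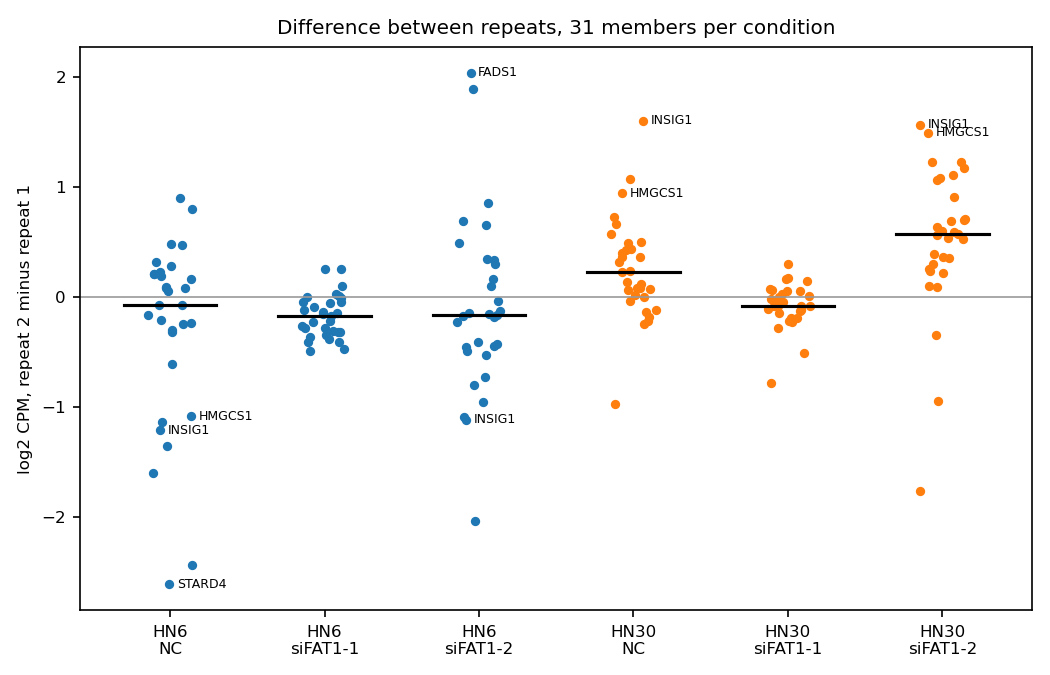
Log2 CPM of repeat 2 minus repeat 1 for the 31 members (points) in each condition, with the median as a line, HN6 in blue and HN30 in orange. INSIG1, STARD4, HMGCS1 and FADS1 are named where they differ by more than 0.9, the siFAT1-1 points lie near 0, and most HN30 siFAT1-2 points lie above 0.

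Taken within each line, knockdown against NC gave 0 members at an adjusted p of 0.05 in HN6 or in HN30, by edgeR, limma-voom or DESeq2. In HN6 edgeR called 0.0072% of all genes higher and 0% lower, and in HN30 0.0288% in each direction. At an unadjusted p under 0.05, HN6 had 1 member higher, SC5D, and 5 lower, EBP, MVK, NSDHL, FADS1 and DHCR7, the enzyme of the last step to cholesterol (all genes, 5.72% and 8.39%). HN30 had 1 member higher, FDPS, and 4 lower, EBP, FADS1, FADS2 and ELOVL6 (all genes, 5.16% and 9.07%). In HN30, FADS1 (log2 fold change -1.32) and ELOVL6 (-1.11) passed the fold threshold as well (all genes, 3.19% lower and 2.35% higher), and in HN6 0 members did (all genes, 1.54% lower and 2.5% higher). The members' median was -0.17 in HN6 and 0.05 in HN30. The effect differed between lines at an unadjusted p under 0.05 for 1 member, FDPS, by 0.69 (SE 0.30, edgeR adjusted p = 0.974), against 1.94% of all genes upwards and 2.07% downwards, and for 0 members past the fold threshold (all genes, 1.14% and 1.4%) or at an adjusted p of 0.05 with edgeR, limma-voom or DESeq2.

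The lines differed before any knockdown. Between the NC libraries, 5 members were higher in HN30 (16.1%, against 15.7% of all genes) and 2 were lower (6.45%, against 16.9%) at an adjusted p of 0.05. At the fold threshold, 7 were higher (22.6%, against 16.3% of all genes) and 2 were lower (6.45%, against 14.4%). The higher members at the adjusted p were PMVK, phosphomevalonate kinase (log2 fold change 1.62, SE 0.33, edgeR adjusted p = 0.00602), CYP51A1 (1.39, SE 0.22, adjusted p = 0.00179), SQLE (0.94, SE 0.24, adjusted p = 0.0158), SC5D (1.55, SE 0.43, adjusted p = 0.0221) and ELOVL6 (1.75, SE 0.54, adjusted p = 0.0333). The lower members were DHCR7 (-1.61, SE 0.22, adjusted p = 0.000734) and MVD (-0.93, SE 0.26, adjusted p = 0.0241). DHCR7, which reduces the last double bond on the way to cholesterol, was at 723 and 769 CPM in HN6 NC, 604 and 453 CPM with siFAT1-1 and 619 and 554 CPM with siFAT1-2. In HN30, DHCR7 was at 214 and 275 CPM with NC, 221 and 229 CPM with siFAT1-1 and 248 and 318 CPM with siFAT1-2. Every HN30 library lay below every HN6 library. PMVK was at 6.695 and 7.498 CPM with NC in HN6, 8.20 and 7.04 CPM with siFAT1-1 and 6.87 and 6.20 CPM with siFAT1-2. In HN30, PMVK was at 29.0 and 14.8 CPM with NC, 17.6 and 16.6 CPM with siFAT1-1 and 17.7 and 21.0 CPM with siFAT1-2. The lines did not overlap, although the HN30 NC libraries were far apart. CYP51A1 was at 79.4 and 75.8 CPM with NC in HN6, 90.9 and 87.9 CPM with siFAT1-1 and 140 and 104 CPM with siFAT1-2. In HN30, CYP51A1 was at 178 and 229 CPM with NC, 234 and 221 CPM with siFAT1-1 and 222 and 291 CPM with siFAT1-2, again above all HN6 libraries. The count of 7 changed when single libraries were left out. The number of all genes called in those fits is not given here, so the members cannot be set against it. With the replicate block the calls of SQLE, SC5D and ELOVL6 were lost (adjusted p of 0.0759, 0.0510 and 0.0513) and ACAT2 and INSIG1 passed. The ELOVL6 call was also lost in 8 of the 12 fits that left out 1 library, that of MVD in 4, and those of SQLE and SC5D in 2 each, and the SC5D difference was 0.95 without HN6 NC repeat 2 and 2.55 without HN6 NC repeat 1.

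Scaled per kilobase of exon, the highest NC levels in HN6 were DHCR7 (108 CPM per kb), SCD (73.2), FASN (62.3), EBP (46.4) and SREBF2 (46.2), and in HN30 they were SCD (149.8), FASN (118), MSMO1 (67.4), HMGCS1 (63.7) and SQLE (62.5). ABCA1 was the lowest in both lines, at 0.79 and 0.76 CPM per kb, next to MYLIP at 1.76 and 2.80. Between these extremes, EBP, SREBF2, LSS and FDPS were near the same level in both lines. Neighbours in these orders were not tested against each other.

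Other genes of the pathways were taken from a list of SREBP processing and acetyl-CoA supply, of which 19 were tested. ME1, the malic enzyme that supplies NADPH for fatty acid synthesis, rose after knockdown (log2 fold change 0.92, SE 0.14, edgeR adjusted p = 0.0130), the only 1 of the 19 that passed. It rose by 0.94 with siFAT1-1 (adjusted p = 0.0061) and by 0.90 with siFAT1-2 (adjusted p = 0.0047). Between the siRNAs, 3 of the 19 were higher with siFAT1-1 and 1 was lower (all genes, 10% and 7.39%). ACSS2, which makes acetyl-CoA from acetate, was higher by 1.00 (SE 0.21, adjusted p = 0.0084), LPIN1, a phosphatidate phosphatase, by 0.92 (SE 0.26, adjusted p = 0.0321), and SLC25A1, the mitochondrial citrate carrier, by 0.69 (SE 0.18, adjusted p = 0.0228). CYB5R3, a cytochrome b5 reductase, was the lower gene, and it fell with siFAT1-1 against NC by 0.90 on the log2 scale (SE 0.17, adjusted p = 0.0162).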

How the data were processed

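Poly(A) RNA from the 12 libraries was sequenced as read pairs. According to the study's methods and the submitters' processing notes, reads with poly-N, duplicated reads and low-quality reads were removed, and the rest were mapped to hg38; HISAT2 and featureCounts are named without versions, and the annotation and strand setting were not given in the sources used here. The deposited values are raw counts per gene symbol, with no normalization by the authors. Removal of duplicated reads can lower the counts of the most abundant genes.

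Counts were filtered with filterByExpr (minimum count 10), which kept 13887 genes, scaled by TMM and tested with edgeR 4.0.16 (quasi-likelihood, two-sided) in R 4.3.3. The models held cell line plus knockdown, cell line plus siRNA, or the 6 condition means over all 12 libraries, with Benjamini-Hochberg adjustment of p across the whole table. The fold threshold is an unadjusted p under 0.05 with an absolute log2 fold change above 1, after the study's methods. Alternatives were DESeq2 1.42.0, DESeq2 size factors, limma-voom (limma 3.58.1), no filter, no cell line term, a replicate block, and each library left out. The edgeR, limma-voom and DESeq2 fits were tested on simulated data. The labels mark the repeats as time1 and time2, and do not state whether samples with the same number were made together. The main models leave the repeat number out, and the replicate block pairs samples of a line by it. Correlations of same-numbered deviations over genes ran from -0.03 to 0.40. The study's methods call the repeats biological.

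The members were taken by symbol for their place in the pathways, and these pathways and the other lists were chosen with earlier results of these data known. Values in every library are given for members past an adjusted p of 0.05 in any comparison (at most 8 by p), past the fold threshold in a knockdown comparison, with all KD libraries on one side of NC, or among SREBF1, SREBF2, INSIG1, SCAP, HMGCS1, SQLE, FASN, SCD, ABCA1 and MYLIP. FDFT1 and STARD4 fall outside this rule and were chosen after their values were seen. Exon overlaps, lengths and coordinates are from GENCODE on hg38. Promoter windows are from RefSeq, and 3 of 3 plus-strand and 2 of 2 minus-strand windows compared were equal to hg38.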

Additional observations from a re-analysis of the deposited data

How the results depend on the processing

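Single genes were recomputed under the alternatives only where a member passed an adjusted p of 0.05. For knockdown, members and FAT1 at an unadjusted p under 0.05 were added. None reversed, which says little, as they were chosen by their change in the same libraries. The members' median for knockdown, close to 0 in the full data, turned negative without HN6 NC repeat 2 (-0.109). It also did so without HN30 NC repeat 1 or either HN30 siFAT1-1 library. In HN30 the median turned negative without HN30 siFAT1-2 repeat 2 (-0.0970), HN30 NC repeat 1 or HN30 siFAT1-1 repeat 1. At an adjusted p of 0.05, DESeq2 called 1 member for knockdown, 3 for siFAT1-1 and 8 for siFAT1-2, and limma-voom called 1 for siFAT1-1 and 11 between the NC lines. Of all 13887 genes, DESeq2 called 640 for knockdown, 1216 for siFAT1-1 and 2694 for siFAT1-2, and limma-voom called 553 for siFAT1-1. The number of all genes that limma-voom called between the NC lines is not given here. Without the cell line term, 0 members passed for siFAT1-2 (all genes, 61) and 0 between siFAT1-1 and siFAT1-2 (all genes, 286), while 0 remained past the fold threshold for knockdown. At the fold threshold, limma-voom and the replicate block each gave 3 members between the siRNAs and 2 for knockdown in HN6. Between the siRNAs within each line (chosen after seeing the data), HN6 gave 0 members at an adjusted p of 0.05 and 0 past the fold threshold, and HN30 gave 2 and 4, with a median of 0.57 over the members. Of all genes in HN30, 4.76% were higher and 3.89% lower at the adjusted p, and 8.73% and 5.98% at the fold threshold. In HN6 these shares were 0.115% and 0.072%, and 4.52% and 4.57%.

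Leaving out 1 library gave these ranges of members at an adjusted p of 0.05: 0 to 1 for siFAT1-1, 3 to 6 for siFAT1-2 and 2 to 10 between the siRNAs. All genes called in the same fits ran from 113 to 712, from 693 to 1682 and from 1015 to 3381. With all libraries they were 451, 1641 and 2420. Counts within a line, between the NC lines and for the difference between lines changed as well, and some of those fits left 1 library in a condition. Members past the fold threshold ran from 0 to 2 for knockdown and 0 to 2 for siFAT1-1. They ran from 1 to 5 for siFAT1-2 (5 without HN6 NC repeat 1) and 1 to 5 between the siRNAs (5 without HN30 siFAT1-2 repeat 2). These counts changed within each line and for the difference between lines too. Shares of all genes at the fold threshold were not computed for the fits that left out 1 library. The members' median ran from -0.370 to -0.0819 in HN6 and from -0.0520 (without HN30 siFAT1-2 repeat 2, and also below 0 without HN30 NC repeat 1) to 0.306 for the difference between lines. The cause of these changes was not tested.

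With the replicate block, which pairs the samples of a line by the labels time1 and time2, 10 members passed between the siRNAs (all genes, 2525). There ACAT2 and FADS1 came in and MYLIP was lost. For siFAT1-2, 6 passed (all genes, 1616), where ACAT2 came in. Between the NC lines 6 passed, and the number of all genes called there is not given here. The FAT1 call for knockdown was lost (adjusted p = 0.0757). With 2 libraries a condition, each fitted change rests on few samples.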

Other observations

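Fatty acid oxidation, the pathway opposite to synthesis, was read from 18 tested genes. Against NC, 0 of them passed an adjusted p of 0.05 in edgeR for knockdown, siFAT1-1 or siFAT1-2, with 5 higher and 1 lower at an unadjusted p under 0.05 for siFAT1-1 (all genes, 8.81% and 10.2%). Between the siRNAs, 3 of 18 were higher with siFAT1-1 and 0 lower at an adjusted p of 0.05 (all genes, 10% and 7.39%). They were ACADS, the short-chain acyl-CoA dehydrogenase (log2 difference 0.91, SE 0.19, adjusted p = 0.0096), ACADVL, the very-long-chain enzyme (0.61, SE 0.14, adjusted p = 0.0133), and ETFB, an electron transfer flavoprotein subunit (0.89, SE 0.22, adjusted p = 0.0188). Between the NC lines, 1 was higher in HN30 and 5 were lower (all genes, 15.7% and 16.9%).

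Of 17 tested genes of sterol handling and LXR, 3 were higher with siFAT1-1 than with siFAT1-2 and 0 lower at an adjusted p of 0.05 in edgeR (all genes, 10% and 7.39%), with 1 lower at an unadjusted p under 0.05. They were ABCA2, a lipid transporter of lysosomes (1.20, SE 0.16, edgeR adjusted p = 0.0012), OSBPL5, an oxysterol-binding-protein relative (1.71, SE 0.33, adjusted p = 0.0064), and LIPA, the lysosomal acid lipase (0.55, SE 0.14, adjusted p = 0.0184). Against NC with siFAT1-2, ABCA2 fell by 0.73 on the log2 scale (adjusted p = 0.0159) and OSBP rose by 0.54 (adjusted p = 0.0375). OSBPL5 was higher with siFAT1-1 against NC by 1.31 and just missed the threshold (adjusted p = 0.0527). Of the 9 squamous markers, KRT17 was higher with siFAT1-1 than with siFAT1-2 by 2.82 (SE 0.40, adjusted p = 0.0014).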
